A study of Mus musculus with 2 samples.

Results

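Cytosolic sensors of RNA and DNA were examined as a group of 10 genes: Ddx58 (RIG-I), Ifih1 (MDA5), Dhx58 (LGP2), Mavs, Zbp1, Eif2ak2 (PKR), Tmem173 (STING), Mb21d1 (cGAS), Aim2 and Ifi204. They were chosen by symbol, in the older spelling that the expression tables use, and were read as RPKM, a read count made relative to both transcript length and library size, so that levels of different genes can be set side by side. All 10 symbols were found among the 35522 features of each table. The neutrophils came from mouse bone marrow and had been sorted as CD11b-positive cells with high Ly-6G and little or no Ly-6C. Both cultures were kept for 3 days in complete RPMI-1640 that held GM-CSF, a myeloid growth factor, at 10 ng/ml. PBS was added to one of them. The other received 20 ug/ml of tumor exosomes, labelled ELV, which are vesicles pelleted from the stem cell medium of CT26 cells, a mouse colon cancer line grown under conditions that enrich its stem-like cells. The animals were Balb/C mice according to the methods of the study, and whether cells of several mice were pooled is not stated. Each treatment was represented by 1 library, so no value below has a spread between replicates and no difference was tested.

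Cells detect foreign or misplaced nucleic acid in the cytosol with a small set of proteins. RIG-I and MDA5 are RNA helicases that bind 5′-triphosphate or long double-stranded RNA and signal through the mitochondrial adaptor MAVS, while the related LGP2 lacks the signalling domains and modulates both. PKR, a kinase activated by double-stranded RNA, phosphorylates the initiation factor eIF2α, and ZBP1 binds Z-form nucleic acid and engages RIPK3. On the DNA side, cGAS makes the messenger cGAMP, which activates STING, AIM2 assembles an inflammasome with ASC, and p204, the product of Ifi204, is a member of the same PYHIN family as AIM2. Many of these genes are themselves induced by interferon. The cultures were sequenced to look for molecules that bear on neutrophil survival, and receptors for nucleic acid were among those the study considered. In the GRCm38 annotation, Aim2 (chr1:173350879-173466040) and Ifi204 (chr1:173747293-173766943) share a chromosome, as do Ifih1 (chr2:62595798-62646255), Mavs (chr2:131234063-131248025) and Zbp1 (chr2:173206612-173218923). Ddx58 spans chr4:40203773-40239828, Mb21d1 chr9:78430526-78443237, Dhx58 chr11:100694884-100704271, Eif2ak2 chr17:78852564-78882573 and Tmem173 chr18:35733679-35740554.

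With exosomes, 8 of the 10 sensor genes were at least 2-fold higher than with PBS and 0 were at least 2-fold lower. Of the 9698 genes that reached 0.25 RPKM in each library, 31.5% were at least 2-fold higher and 5.62% at least 2-fold lower. All 10 sensor genes passed that filter, with 55 or more estimated reads each in PBS. The median log2 fold change of the 10 was 1.54, a ratio of 2.91, against 0.53, a ratio of 1.44, over all genes kept. At the higher limit of 4-fold, 4 of the 10 were higher (Zbp1, Ifih1, Eif2ak2 and Ifi204), against 8.52% of all genes. Only Aim2 and Tmem173 were lower with exosomes than with PBS.

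**Figure D1:**
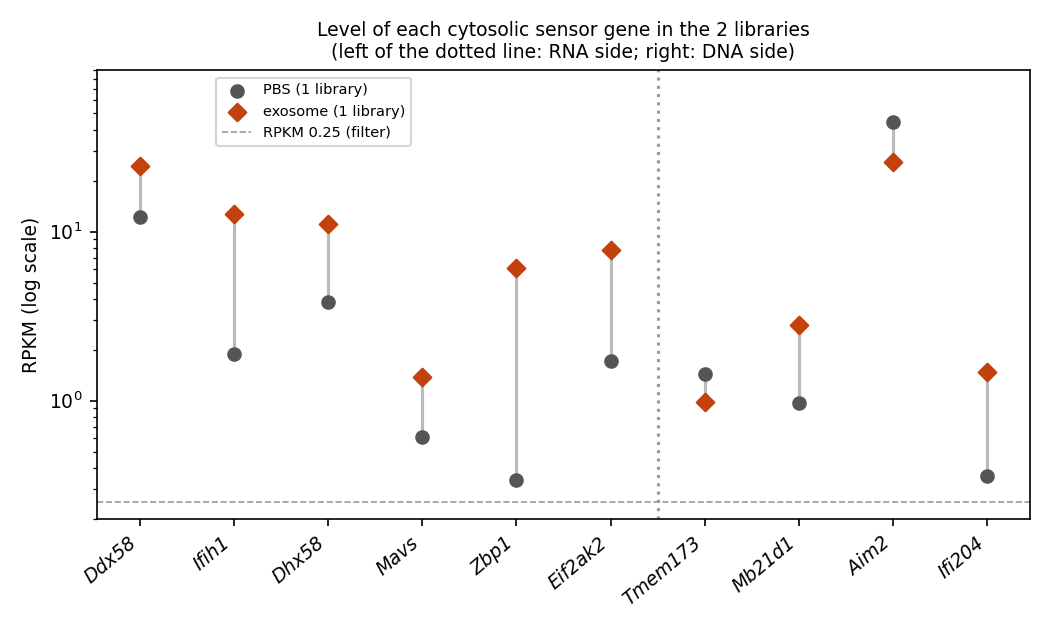
RPKM (log scale) of each sensor gene in the PBS library (circles) and the exosome library (diamonds), with the RNA side left of the dotted line and the DNA side right of it. All 6 genes of the RNA side stood higher with exosomes, from Mavs at 0.61 and 1.38 to Ddx58 at 12.27 and 24.56 RPKM, whereas Aim2 and Tmem173 stood lower.

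RIG-I had the highest RNA of the 3 helicases in both libraries. Ddx58 stood at 12.27 RPKM in PBS and 24.56 with exosomes, a log2 fold change of 1.001. The 95% counting interval of that change, which rests on estimated reads and leaves out any variation between cultures, was 0.94 to 1.06. Ddx58 thus sat on the 2-fold limit, and its change ranked 3039 among the 9698 genes kept. Ifih1 was 1.89 RPKM in PBS and 12.69 with exosomes, a ratio of 6.71 (log2 fold change 2.75, counting interval 2.63 to 2.86). It ranked 233 among all genes kept. Dhx58 lay between the other two, at 3.81 and 11.13 RPKM (log2 fold change 1.55, counting interval 1.42 to 1.68). In PBS the order of the helicases was Ddx58, Dhx58, Ifih1, and with exosomes it was Ddx58, Ifih1, Dhx58, with counting intervals that did not overlap in either library.

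The adaptor of both signalling helicases was scarce. Mavs had 0.61 RPKM in PBS and 1.38 with exosomes, and the counting interval of its log2 fold change (1.18) ran from 0.88 to 1.49, across the 2-fold limit. About 123 and 334 reads lay behind these values.

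ZBP1, which couples Z-form nucleic acid to necroptosis, showed the largest change of the group. Zbp1 was the lowest member in PBS, at 0.34 RPKM, and stood at 6.11 RPKM with exosomes, a ratio of 17.97. Its log2 fold change of 4.17 (counting interval 3.83 to 4.51) ranked 29 among the 9698 genes kept. With 75 estimated reads in PBS and 1608 with exosomes, the low value was the less precise of the pair. Eif2ak2, the PKR gene, was 1.71 RPKM in PBS and 7.78 with exosomes (ratio 4.55, log2 fold change 2.19, counting interval 2.04 to 2.33).

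On the DNA side the genes differed in both directions. Aim2 was the highest of all 10 genes in PBS, at 44.44 RPKM, and ranked 1144 of 35522 features there. With exosomes it stood at 25.73 RPKM, 1.73-fold lower (log2 fold change -0.79, counting interval -0.84 to -0.74). Its RNA made up 65.5% of the summed RPKM of the 10 sensor genes in PBS and 27.2% with exosomes, where Ddx58 reached 25.9%. Tmem173, the gene of STING, was 1.44 RPKM in PBS and 0.98 with exosomes, 1.47-fold lower, with a log2 fold change of -0.56 (counting interval -0.85 to -0.26). Neither decrease reached 2-fold, yet only 7.95% and 11.8% of all genes kept had a smaller log2 fold change than Aim2 and Tmem173, respectively.

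cGAS, the enzyme upstream of STING, went the other way from its partner. Mb21d1 was 0.97 RPKM in PBS and 2.81 with exosomes, a ratio of 2.90 (log2 fold change 1.54, counting interval 1.33 to 1.74). Ifi204 was 0.36 RPKM in PBS and 1.47 with exosomes, a ratio of 4.08 (log2 fold change 2.03, counting interval 1.59 to 2.46). Its family holds closely similar genes in a cluster on chromosome 1, and how reads shared between them were assigned is not stated, so the value of Ifi204 is uncertain. The same limit holds for the other genes of the family. Among them Ifi202b was 12.02-fold higher with exosomes, at 0.59 and 7.09 RPKM, and Mnda 2.10-fold, at 0.29 and 0.61 RPKM. Ifi203, Mndal and Pyhin1 had ratios of 1.19, 1.18 and 1.07. Mnda and the latter genes were named after their values were seen.

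Ranked by level, the group spread over a wide range in both libraries. In PBS the order was Aim2, Ddx58, Dhx58, Ifih1, Eif2ak2, Tmem173, Mb21d1, Mavs, Ifi204 and Zbp1. The counting intervals of Ifih1 and Eif2ak2 overlapped, as did those of Eif2ak2 and Tmem173 and those of Ifi204 and Zbp1. With exosomes the order was Aim2, Ddx58, Ifih1, Dhx58, Eif2ak2, Zbp1, Mb21d1, Ifi204, Mavs and Tmem173. Zbp1 took place 10 in PBS and place 6 with exosomes, and Tmem173 the reverse. Here the intervals of Aim2 (25.07 to 26.4 RPKM) and Ddx58 (24.01 to 25.12 RPKM) overlapped, and those of Ifi204 and Mavs overlapped.

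**Figure D2:**
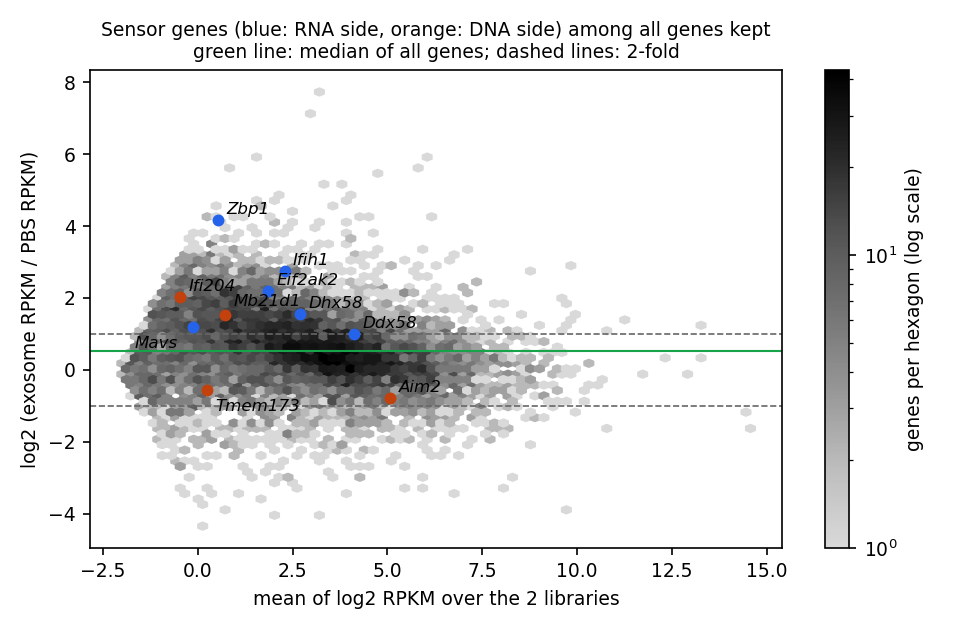
Log2 of the exosome over the PBS RPKM (vertical axis) against the mean log2 RPKM of both libraries (horizontal axis) for the 9698 genes kept, with darker hexagons holding more genes, the RNA side in blue and the DNA side in orange. Zbp1 lies at 4.17, near the upper edge of the cloud, and Aim2 at -0.79 and Tmem173 at -0.56 lie below the green line, the median of all genes at 0.53.

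The deposited values of the libraries were not centred on each other, and the shift between them was larger for genes of low level. Each sensor gene was therefore also set beside the genes of its own bin of mean level, 1 of 20 bins and 485 genes in size. The median log2 fold change of that bin was 1.13 for Zbp1 and Tmem173, 1.20 for Mb21d1, 1.09 for Mavs, 0.97 for Ifi204, 0.89 for Eif2ak2, 0.71 for Ifih1 and for Dhx58, 0.35 for Ddx58 and 0.21 for Aim2. The share of genes at least 2-fold higher was 52.6% in the bin of Mavs and 56.3% in that of Mb21d1, so a doubling was common at their level. In the bin of Tmem173 only 4.33% of genes were at least 2-fold lower and 55.7% were at least 2-fold higher. After the bin median was removed, the values were 3.04 for Zbp1, 2.04 for Ifih1, 1.30 for Eif2ak2, 1.06 for Ifi204, 0.84 for Dhx58, 0.65 for Ddx58, 0.33 for Mb21d1, 0.09 for Mavs, -0.99 for Aim2 and -1.69 for Tmem173.

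Under the simpler centring that removes the median log2 fold change of all genes, 6 of the 10 sensor genes were at least 2-fold higher and 2 at least 2-fold lower. The corresponding shares of all genes were 16.8% and 13.2%. Ddx58 (0.47) and Mavs (0.65) then lay inside the 2-fold limit, and Aim2 (-1.31) and Tmem173 (-1.08) passed it downwards. Zbp1, Ifih1 and Eif2ak2 stayed at least 2-fold higher under each of the 9 alternatives to the scaling, filter or pseudocount that kept them, 8 in the case of Zbp1, which the filter of at least 1 RPKM left out.

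**Figure D3:**
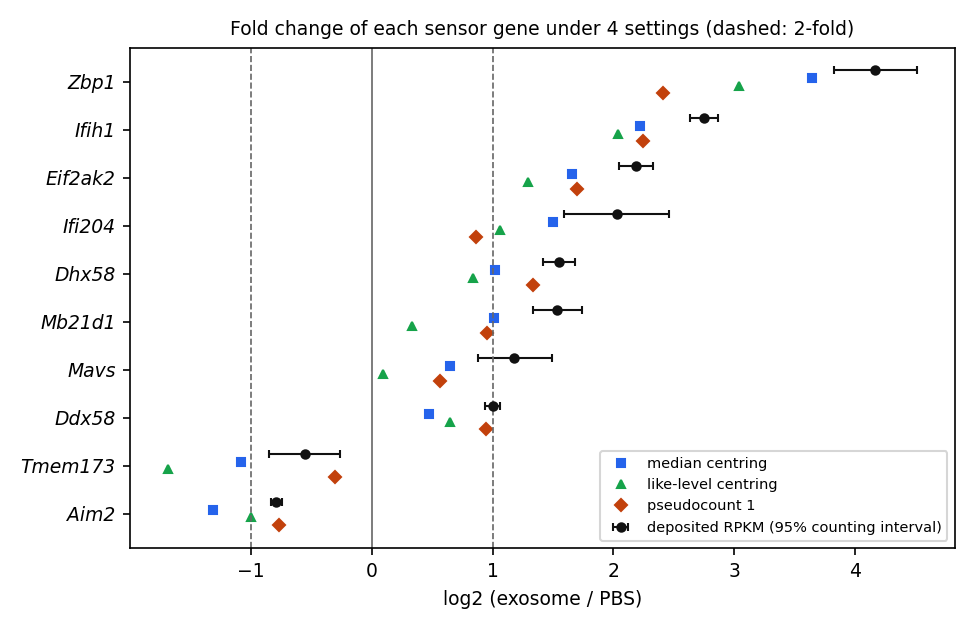
Log2 fold change (exosome over PBS) of each sensor gene from the deposited RPKM (circles, with 95% counting intervals), after median centring (squares), after removal of the median of genes at a like level (triangles) and with a pseudocount of 1 (diamonds). Zbp1, Ifih1 and Eif2ak2 lie right of the upper dashed line under all 4 settings, while Tmem173 ranges from -1.69 to -0.30.

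Ratios of genes within a library do not depend on a scale factor common to all its genes, and 10 pairs of sensor and partner were compared in this way. Where the genes of a pair lie at different levels, the ratio still carries the shift that varied with level. The ratio of Ifih1 to Ddx58 was 0.15 in PBS and 0.52 with exosomes, a 3.35-fold difference (log2 difference 1.75, counting interval 1.62 to 1.88). The ratio of Ifih1 to Mavs was 3.10 in PBS and 9.20 with exosomes. In contrast, the ratio of Ddx58 to Mavs was 20.1 in PBS and 17.8 with exosomes, and the counting interval of its log2 difference, -0.48 to 0.13, included 0. Dhx58 was 0.31 of the level of Ddx58 in PBS and 0.45 with exosomes (log2 difference 0.55, counting interval 0.40 to 0.69). After removal of the bin medians, the log2 fold changes were 2.04 for Ifih1, 0.84 for Dhx58, 0.65 for Ddx58 and 0.09 for Mavs. Ddx58 then lay above Mavs. Within the RIG-I-like family, Ifih1 therefore had a larger share in the exosome library.

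The cGAS to STING ratio was 0.67 in PBS and 2.87 with exosomes, 4.26-fold higher (log2 difference 2.09, counting interval 1.74 to 2.44), so the order of the pair was inverted. Ifi204 was 0.25 of Tmem173 in PBS and 1.5 with exosomes. AIM2 needs ASC, encoded by Pycard, to form an inflammasome. Pycard itself was 1.87 RPKM in PBS and 5.17 with exosomes, and the ratio of Aim2 to Pycard was 23.8 in PBS and 4.98 with exosomes, 4.78-fold lower (log2 difference -2.26, counting interval -2.41 to -2.10). With the medians of genes at a like level removed, the log2 fold change was -0.99 for Aim2 and 0.54 for Pycard, a smaller gap. For ZBP1 and its kinase, the ratio of Zbp1 to Ripk3 was 0.35 in PBS and 2.42 with exosomes. Eif2ak2 and the gene of its substrate, Eif2s1, had similar ratios in both libraries, 0.77 in PBS and 0.72 with exosomes (counting interval of the log2 difference -0.29 to 0.10), as Eif2s1 went from 2.23 to 10.85 RPKM. A pseudocount of 1 lowered the log2 difference to 1.25 for Mb21d1 to Tmem173, from 2.59 to 1.16 for Ifi204 to Tmem173 and from 2.77 to 1.56 for Zbp1 to Ripk3, and it turned that of Ddx58 to Mavs from -0.18 to 0.38.

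**Figure D4:**
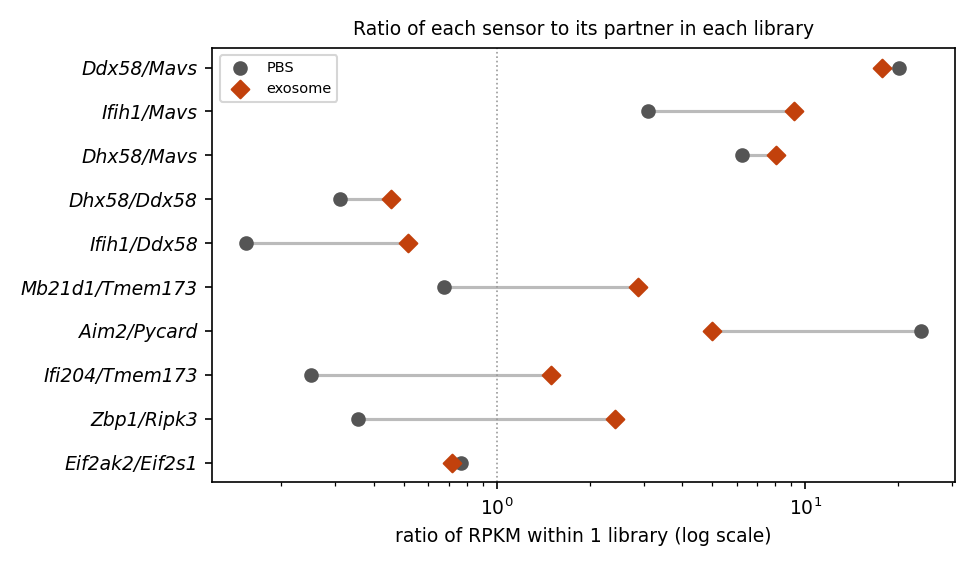
Ratio of the RPKM of a sensor gene to that of its partner within the PBS library (circles) and within the exosome library (diamonds), on a log axis. Ddx58/Mavs and Eif2ak2/Eif2s1 nearly coincide, Aim2/Pycard moves left from 23.8 to 4.98, and Mb21d1/Tmem173, Ifi204/Tmem173 and Zbp1/Ripk3 move right across 1.

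The start regions of the sensor genes were read for the interferon-stimulated response element (ISRE), the site bound by the interferon-activated complex ISGF3. RefSeq windows (GRCm38.p6) from 250 bases before to 50 bases after the start were available for 6 of the 10 genes: Ddx58, Ifih1, Mavs, Eif2ak2, Mb21d1 and Aim2. The letters GAAANNGAAA, searched on both strands, were present in 3 of them, Ddx58, Ifih1 and Eif2ak2, and in 3.44% of all 32851 windows. Each match lay just after the start, in the transcribed region, at base 3 in Ddx58, base 33 in Ifih1 and base 19 in Eif2ak2. All 3 genes were called higher with exosomes, but so were Mavs and Mb21d1, whose windows held no match. Ddx58 only just passed the 2-fold limit, at a log2 fold change of 1.001. It fell to 0.47 after median centring and to 0.65 with the like-level median removed. Whether the matches bear on the RNA levels was not tested. The bases around each match are printed 5′ to 3′ on the strand of the gene, with the match in capitals. The match of Ddx58 is on the opposite strand.
Ddx58 (chr4:40239804-40239833, minus strand): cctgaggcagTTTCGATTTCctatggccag
Ifih1 (chr2:62646206-62646235, minus strand): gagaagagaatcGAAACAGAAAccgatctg
Eif2ak2 (chr17:78882535-78882564, minus strand): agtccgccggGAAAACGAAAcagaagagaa

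No match was found in the windows of Mavs, Mb21d1 and Aim2. For comparison, the 250 bases before the start are given for Mb21d1, which was higher with exosomes without a match, and for Aim2, which was lower. The Aim2 window lies inside the span of its gene model, which begins at base 173350879 of chromosome 1.
Mb21d1 (chr9:78443238-78443487, minus strand): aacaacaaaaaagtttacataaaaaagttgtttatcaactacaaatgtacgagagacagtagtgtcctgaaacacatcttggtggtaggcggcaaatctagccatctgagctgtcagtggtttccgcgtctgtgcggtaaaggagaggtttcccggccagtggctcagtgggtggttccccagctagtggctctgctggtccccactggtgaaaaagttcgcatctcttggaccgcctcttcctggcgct
Aim2 (chr1:173420354-173420603, plus strand): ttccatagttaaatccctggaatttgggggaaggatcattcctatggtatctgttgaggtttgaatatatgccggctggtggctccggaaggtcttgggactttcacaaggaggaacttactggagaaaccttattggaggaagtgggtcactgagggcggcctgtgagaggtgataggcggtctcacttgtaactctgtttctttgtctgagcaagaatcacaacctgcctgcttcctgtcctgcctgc

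A second interferon element, the GAS site searched as TTCNNNGAA, was present in the window of Eif2ak2, 178 bases before its start, in none of the other 5 windows, and in 8.30% of all windows. Over the genes kept that had a window, 126 of 310 genes with the ISRE letters (40.6%) were at least 2-fold higher with exosomes, against 2384 of 7532 genes without them (31.7%). These are descriptions of letters in a window, and binding was not measured.

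Genes around the sensors were then read from 9 lists that hold 138 genes, none of them a member. Of these, 121 passed the filter, 54 were at least 2-fold higher with exosomes (44.6%, against 31.5% of all genes) and 5 were at least 2-fold lower (against 5.62% of all genes). The median log2 fold change was 0.85. Counts of each list below stand against the same shares of all genes. After removal of the median of genes at a like level, 12.8% of all genes were at least 2-fold higher and 13.4% at least 2-fold lower.

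Among other RNA sensors and effectors, 15 of the 21 genes kept were at least 2-fold higher and 1 was at least 2-fold lower, with a median log2 fold change of 1.44. With the like-level median removed, 10 were at least 2-fold higher and 1 at least 2-fold lower. The list holds the oligoadenylate synthetases, which are activated by double-stranded RNA, and the IFIT proteins, which bind foreign RNA. Oas1g was 11.9-fold higher (1.15 and 13.71 RPKM), Oasl2 8.80-fold and Oas1a 8.04-fold. The ISRE letters were present in 7 of the 19 genes of this list with a window.

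Other DNA sensors were less uniform, with 6 of 13 at least 2-fold higher (46.2%, against 31.5% of all genes), 0 at least 2-fold lower and a median of 0.61. Besides Ifi202b, Rad50 (4.59-fold) and Prkdc (3.20-fold), genes of DNA break repair, were highest among them. Both were low in PBS, at 0.92 and 0.35 RPKM. With the like-level median removed, 2 of these DNA sensors were at least 2-fold higher and 1 at least 2-fold lower. Nucleic acid clearance genes, which remove the ligands of the sensors, had 7 of 11 at least 2-fold higher, 0 at least 2-fold lower and a median of 1.18. With the like-level median removed, 4 clearance genes were at least 2-fold higher and 0 at least 2-fold lower. Trex1, the exonuclease that degrades cytosolic DNA, was 5.57 RPKM in PBS and 46.43 with exosomes, an 8.34-fold difference. Pnpt1, a mitochondrial RNA nuclease, was 6.61-fold and Rnaseh2b, a subunit of RNase H2, 4.53-fold higher. Their PBS values were low, at 0.49 and 0.36 RPKM.

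Of 15 genes of the signalling steps between sensors and interferon genes, 2 were at least 2-fold higher and 2 at least 2-fold lower. Their median was 0.36. With the like-level median removed, 2 were at least 2-fold higher and 3 at least 2-fold lower. The shares of all genes under that setting were 12.8% and 13.4%. The higher signalling genes were the kinase gene Ikbke (19.58 and 197.93 RPKM, 10.1-fold) and the transcription factor gene Irf7 (22.55 and 136.1 RPKM, 6.04-fold). Their close relatives were within the 2-fold limit. Tbk1 had 39.75 and 46.29 RPKM and Irf3 had 17.43 and 24.81 RPKM (1.42-fold higher). Both turned slightly negative on the log2 scale under median centring (-0.31 and -0.02). With the like-level median removed, both stayed positive (0.09 and 0.22). Ikbkg, the regulatory subunit of the IκB kinase, was 2.84-fold lower and Tbkbp1, a TBK1-binding adaptor, 2.45-fold lower. Among 22 regulators of the sensors and adaptors, 5 were at least 2-fold higher, 0 at least 2-fold lower, and the median was 0.42. With the like-level median removed, 2 regulators were at least 2-fold higher and 1 at least 2-fold lower. Banf1, a DNA-binding protein that restrains cGAS at the nuclear genome, was 6.18-fold higher, Ywhae, a chaperone of RIG-I, 3.00-fold and Rnf135, a RIG-I ubiquitin ligase, 2.54-fold. Trim25, another ubiquitin ligase of RIG-I, was 60.82 and 67.58 RPKM, a log2 fold change of 0.15. It became -0.37 under median centring and 0.13 with the like-level median removed.

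**Figure D5:**
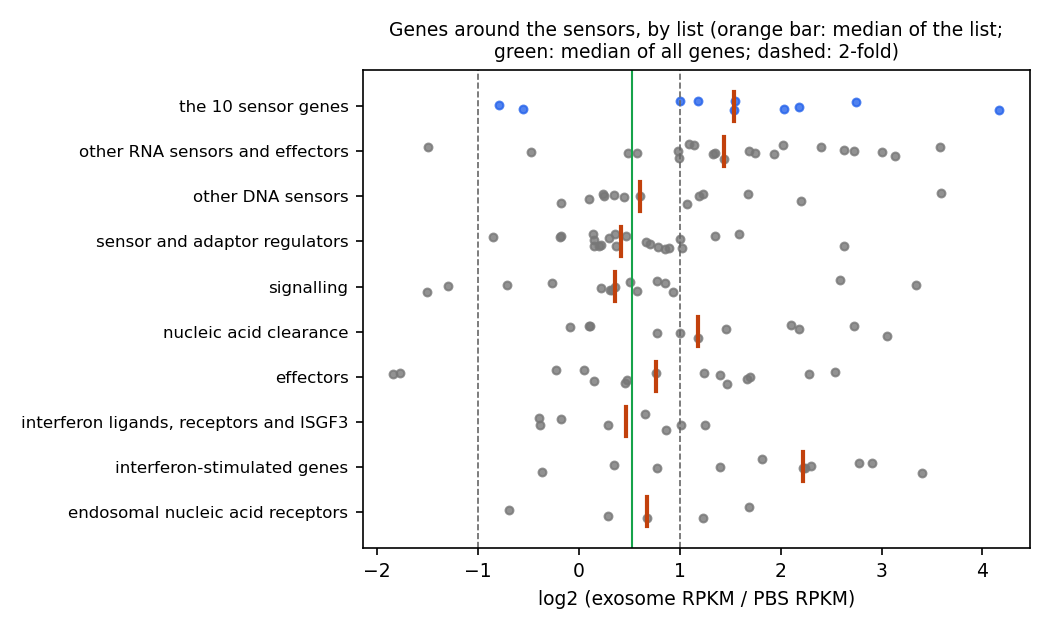
Log2 of the exosome over the PBS RPKM for the 10 sensor genes (blue) and for the genes kept of 9 lists around them (grey, 1 point per gene), with the median of each list as an orange bar. The medians of the interferon-stimulated genes (2.23), the sensor genes (1.54) and the other RNA sensors and effectors (1.44) lie furthest right, and those of signalling (0.36), regulators (0.42) and interferon ligands, receptors and ISGF3 (0.47) lie left of the green line for all genes at 0.53.

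Effectors were mixed, with 7 of 15 at least 2-fold higher, 2 at least 2-fold lower and a median of 0.77. Fadd (5.80-fold), Eif2s1 (4.87-fold) and Casp8 (3.24-fold), of death receptor signalling and translation initiation, led the higher genes. Fadd lay at the filter in PBS, at 0.25 RPKM, and at 1.45 RPKM with exosomes. Ripk3 was 0.96 and 2.53 RPKM and Casp1, the inflammasome protease, 7.26 and 17.12 RPKM. Mlkl, the executor of necroptosis downstream of RIPK3, did not pass the filter, at 0.08 and 0.19 RPKM. The lower genes were Ddit3, the stress factor CHOP (3.57-fold), and Eif2ak3, the eIF2α kinase PERK (3.42-fold). With the like-level median removed, 3 effectors were at least 2-fold higher and 2 at least 2-fold lower.

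The interferon genes in the list were hardly read, and other interferon genes were not in it. Ifnb1 had 0.04 RPKM in PBS and 0.03 with exosomes, about 2 reads each and below the level of 3 reads (0.06 and 0.05 RPKM), and the 4 Ifna genes in the list were at 0 in both libraries. Of the 8 interferon receptor and signalling genes kept, Irf9 (18.54 and 44.14 RPKM, 2.38-fold) and Tyk2 (2.02-fold) were at least 2-fold higher (25%, against 31.5% of all genes), 0 were at least 2-fold lower and the median was 0.47. Under median centring 0 of the 8 were at least 2-fold higher, with Irf9 at a log2 fold change of 0.73. With the like-level median removed, 1 of the 8, Irf9 at 1.045, was at least 2-fold higher and 0 at least 2-fold lower. Stat2 was 6.22 and 9.81 RPKM. Of 11 interferon-stimulated genes kept, 8 were at least 2-fold higher and 0 at least 2-fold lower, with a median of 2.23. With the like-level median removed, 8 were at least 2-fold higher and 1 at least 2-fold lower. Bst2 (10.5-fold), Xaf1 (7.50-fold, from 0.54 RPKM in PBS) and Usp18, the negative regulator of the interferon receptor (6.84-fold), were highest. Mx1 and Mx2 were listed at 0 in both libraries. Among 5 genes for the endosomal route of nucleic acid sensing, Tlr9 (3.22-fold) and Tlr7 (2.35-fold) were at least 2-fold higher. In this list 0 were at least 2-fold lower. Median centring gave 1 higher and 1 lower, and removal of the like-level median gave 0 higher and 0 lower. Tlr13, named after its values were seen, was 132.74 RPKM in PBS and 82.05 with exosomes.

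Other measures of the libraries moved together with these genes. All 10 neutrophil markers were lower with exosomes, from a summed 84445 RPKM to 30447 RPKM, with Csf3r at 1549 and 715 RPKM. All 12 listed monocyte and macrophage markers were higher, from a summed 283 to 687 RPKM. Emr1, which encodes F4/80, was 20.91 and 151.51 RPKM, and Mertk and C1qa, at 0.04 and 0.18 RPKM in PBS, reached 0.48 and 1.42 RPKM. The B cell genes Cd79a and Ms4a1 were present at 38.25 and 15.64 RPKM in PBS and were lower with exosomes, both at a ratio of 0.64. The sort for CD11b and Ly-6G should remove most B cells, but the methods of the study did not require full purity of sorted cells. Over all 9 lymphocyte markers, of which 4 were higher and 5 lower, the sum was 71.9 and 45.4 RPKM. Cd3e, Cd4, Cd8a and Ncr1 stayed at 0.10 RPKM or less, whereas Cd3g was 1.19 and 0.11 RPKM and Klrb1c 0.01 and 0.51 RPKM. Dendritic cell markers summed to 25.4 and 17.5 RPKM, with 6 of 8 lower. Eosinophil, basophil and mast cell markers summed to 7.14 and 4.60 RPKM and erythroid markers to 1.57 and 0.14 RPKM. Of the 6 epithelial genes chosen for the tumor cells that shed the vesicles, Krt8 and Cldn4 were at 0 in both libraries and the sum was 0.59 and 0.21 RPKM. The part of these cell types in the levels of the sensor genes was not tested. In RNA of bulk cultures, fewer cells of a type and less RNA per cell cannot be told apart.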

How the data were processed

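Per the labels, total RNA was extracted with Trizol and mRNA libraries were made with a TruSeq kit. The authors sequenced on a HiSeq system, used CLC Genomics Workbench for trimming and deposited RPKM, 1 value for each feature of a library. The submitters' processing notes name build mm10. The annotation, strand setting and handling of reads that match several genes are not given in the sources used here. RPKM values above 0.01 are rounded to 0.01.

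Genes that reached 0.25 RPKM in each library were kept (the limits of the study), and fold changes are log2 of exosome over PBS RPKM without pseudocount. A gene at a ratio of at least 2, or at most 0.5, was called higher or lower. With 1 library per treatment no test was possible. Depth was estimated from 1-read values below 0.01 RPKM and the longest GENCODE M21 transcript (GRCm38). It was 65970000 mapped reads in PBS and 79130000 with exosomes. These totals rest on the commonest value, shared by 275 of 994 such features in PBS and 335 of 1160 with exosomes. Their ratio of 1.20 was also read without lengths from 217 of 415 low features. Counting intervals (95%) are exact Clopper-Pearson for changes, exact Poisson for levels and a normal approximation for ratios of pairs, and cover counting error only. GENCODE calls Mb21d1 Cgas. Dhx58, Eif2ak2, Mb21d1 and Aim2 overlap genes on the opposite strand. Of these, the overlapping gene of Aim2, Cadm3, was at 0.01 RPKM or less and that of Mb21d1 was at 0, and the others had no value of their own.

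Members, lists and tests were chosen with earlier results of these data known. Named were all members and pair partners, pathway genes fixed by name, and up to 3 higher and 2 lower genes per list. Some genes that the rule names are not reported here. Alternatives were 5 scalings, 2 filters, 2 pseudocounts and 2 fold limits. Scripts (Python 3.11.15, pandas 2.3.3, SciPy 1.17.1) were tested on simulated data.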

Additional observations from a re-analysis of the deposited data

How the results depend on the processing

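All 10 sensor genes kept the sign of their log2 fold change in the 85 values recomputed under alternative scalings, filters and pseudocounts, although the number past the 2-fold limit changed. Median centring gave 6 sensor genes higher and 2 lower, with a median of 1.01 over the sensor genes, 33 higher and 8 lower pathway genes, and 1634 higher and 1282 lower genes in all. Removing a trimmed mean of log ratios gave 5 and 2 sensor genes, a median of 0.9992, 33 and 9 pathway genes, and 1596 and 1321 of all genes. Removing the median of genes at a like level gave 4 and 1, a median of 0.74, 32 and 9 pathway genes, and 1242 and 1300 of all genes. By construction these 3 settings bring the bulk of genes to no change. Leaving S100a8 and S100a9 out of the totals moved the median of the sensor genes to 1.37. An RPKM of at least 1 in both libraries kept 5 of the 10 sensor genes, of which 4 were higher, and left 1958 genes higher in all. Keeping every gene above 0 RPKM in both libraries (13970 genes) gave 4508 higher and 1436 lower. A pseudocount of 1 left 4 sensor genes higher (Ifih1, Dhx58, Zbp1 and Eif2ak2), a median of 0.95 and 1976 genes higher in all. At a fold limit of 4, the sensor genes higher numbered 4, the pathway genes 24 higher and 0 lower, and all genes 826 higher and 111 lower. At a limit of 1.5, Aim2 made 1 sensor gene lower, 8 pathway genes were lower, and 4586 genes were higher and 1092 lower. For reasons other than construction, the cause was not tested. No paired analysis was possible because each treatment had 1 library. Depth limits Zbp1 and Ifi204 most, with 75 and 55 estimated reads in PBS. These estimates depend on the gene length used. With the union of exons as the length they were 79 and 85, and that of Ddx58 in PBS was 5707 in place of 3136.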
